A study of Ovis aries with 10 samples.

Results

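The dystrophin gene DMD, its paralog utrophin (UTRN) and the nesprin-1 gene SYNE1 together hosted 50 of the 8721 circular RNAs (circRNAs) listed in longissimus dorsi samples of small-tailed Han ewes. They were taken as every circRNA whose host gene in the deposited table is exactly DMD, UTRN or SYNE1 and that is listed in at least 1 library of the series, which gave 18, 16 and 16 circRNAs. The libraries came from 5 ovariectomized sheep samples, labelled OR-STH, and 5 sham-operated samples, labelled STH, in a study of how estrogen bears on muscle growth in females. No age, further allele or per-sample drug dose is given for either group. The tissue label is longissimus dorsi, a muscle of the back, but the cell type label is primary myoblasts, with a culture protocol and an estradiol series that no sample is assigned to. They do not say whether each library is a separate animal, so each p-value measures the spread between these samples.

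A circRNA forms when a downstream splice donor joins an upstream acceptor, which closes 1 or more exons into a ring. Reads across that back-splice are called junction reads here, and each is evidence for the ring itself. No source used here defines non-junction reads. They were read as those that fall at the ends of a circRNA without crossing its back-splice, which linear transcripts of the host can also give. Dystrophin links the actin cytoskeleton of the muscle fibre to a membrane complex of dystroglycan and sarcoglycans, and its loss causes Duchenne muscular dystrophy in humans. Utrophin holds a similar place and in mature fibres is concentrated at neuromuscular and myotendinous junctions. Nesprin-1 sits in the outer nuclear membrane, where it joins SUN proteins and ties the nucleus to the cytoskeleton. All are very large proteins built mainly of spectrin repeats, encoded by long genes with many exons.

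The libraries held 39045 to 67061 junction reads in the ovariectomized group and 35731 to 49887 in the sham group, with the largest total in ovariectomized replicate 5. The 50 circRNAs took 1307 junction reads, 0.293% of all. Of 14 adult muscle fibre genes, 11 hosted a circRNA, with 16394 reads, and TTN held 12696 of them. Of 6 myoblast genes, 2 did, DES and NCAM1, with 5 reads, and the myogenic regulators PAX7, MYOD1, MYF5 and MYOG hosted none. DES is also in the costamere and neuromuscular junction list used below, so it does not mark myoblasts alone. Among other cell types, 4 of 6 endothelial genes hosted a circRNA, with 203 reads, and 2 of 6 fibroblast and matrix genes, with 616. So did 1 of 4 Schwann cell genes, with 6 reads, and 1 of 4 smooth muscle and pericyte genes, with 4. None was hosted by 0 of 3 adipocyte and 0 of 3 immune genes. Host counts follow gene structure as well as expression and do not measure cell content, and in such bulk RNA fewer cells of a type and less RNA per cell cannot be told apart.

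The circRNAs of the 3 genes were laid out differently. DMD, on the minus strand of chromosome X, gave circRNAs spread over 1273.3 kb, between positions 30935811 and 32209113 of the files' genome build, which is not named in the sources used here. UTRN, on the plus strand of chromosome 8, gave circRNAs over 385.5 kb, from 68981618 to 69367164. SYNE1, on the minus strand of chromosome 8, gave them over 306.0 kb, from 76926320 to 77232314. Genomic spans were widest in DMD, with a median of 18.2 kb, against 11.3 kb in UTRN, 6.89 kb in SYNE1 and 7.69 kb over all 8721 circRNAs. The spliced lengths, the summed lengths of the listed exon blocks, were close to each other, with medians of 328.5 bases in DMD, 289 in UTRN and 311.5 in SYNE1, against 291 over all circRNAs. The wide DMD spans thus held mostly sequence outside the listed blocks. The widest, novel_circ_0017217, covered 59.97 kb of DMD with 264 bases of listed exon. The shortest spans were those of the only intronic circRNA, novel_circ_0017210 in DMD with 284 bases, then novel_circ_0017202 of DMD with 337 and novel_circ_0009406 of SYNE1 with 338.

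**Figure D1:**
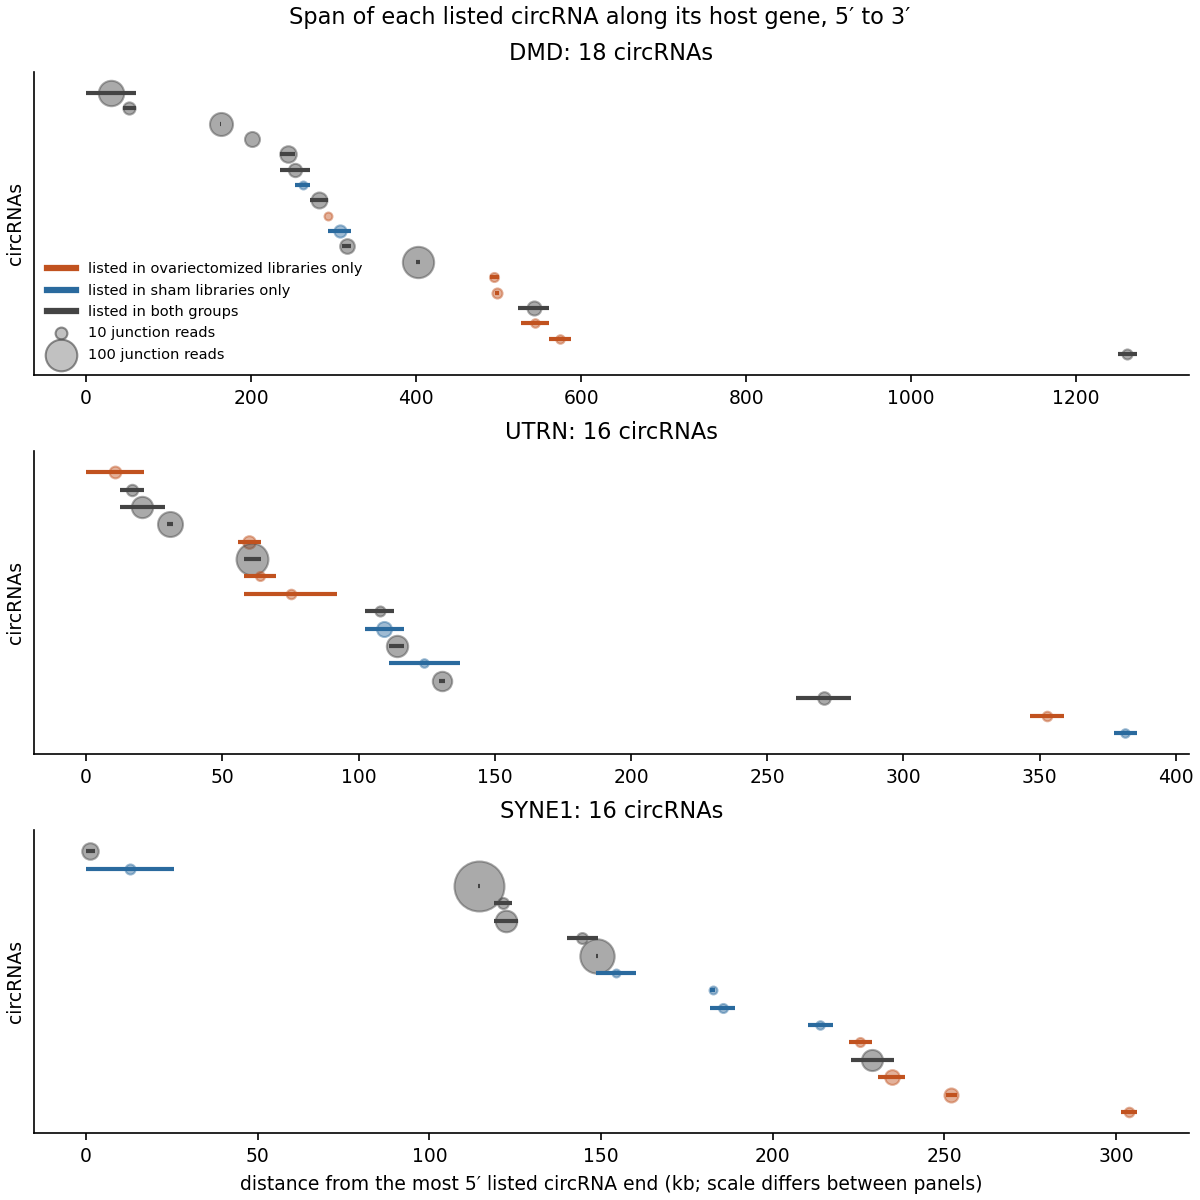
Genomic span of each of the 18 DMD, 16 UTRN and 16 SYNE1 circRNAs, as distance in kb along the host from the most 5′ listed end (horizontal axis, a different scale in each panel), 1 circRNA per line. Bars are spans and circle areas are junction reads over 10 libraries; the largest circles are novel_circ_0009406 and novel_circ_0009401 of SYNE1, and 1 DMD span lies far 3′ of the other 17.

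Exon makeup was simple in each gene. Of the 50 circRNAs, 37 had 2 or 3 listed blocks, compared with 64.6% of all circRNAs. DMD had 2 circRNAs of 1 block, 11 of 2 and 5 of 3. UTRN had 5, 9 and 2, and SYNE1 had 6, 9 and 1. The listed blocks reached both ends of the circRNA in 16 of 18 for DMD but in 9 of 16 for UTRN and 10 of 16 for SYNE1, against 68.8% of all circRNAs. Where they did not, as in novel_circ_0009320 of UTRN with 1 block of 76 bases in 14.4 kb, the spliced length leaves out at least 1 end.

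Circles of 1 gene often shared an end. In DMD, 12 of 18 circRNAs shared their splice donor with another DMD circRNA and 4 shared their acceptor. In UTRN the order was the other way, with 9 of 16 sharing an acceptor and 6 a donor. In SYNE1, 8 of 16 shared an acceptor and 2 a donor. No more than 3 circRNAs used 1 end, and that end was the UTRN acceptor at 69039566, used by novel_circ_0009313, novel_circ_0009314 and novel_circ_0009316, with 111 junction reads between them. The donor at 32149143 of DMD served novel_circ_0017216 and novel_circ_0017217, with 74 reads. The SYNE1 circRNA novel_circ_0009401 shared its donor at 77083159 with novel_circ_0009402 and its acceptor at 77083768 with novel_circ_0009400. No end was shared by 5 DMD, 5 UTRN and 7 SYNE1 circRNAs. Shared ends were not counted over other hosts, so whether these counts are unusual was not tested.

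Most of the circRNAs were rare. A library listed 4 to 11 of the 18 for DMD, 3 to 9 of the 16 for UTRN and 4 to 9 of the 16 for SYNE1. Of the 50, 19 (38.0%) were listed in a single library, against 37.5% of all circRNAs, and 3 in all 10, against 9.24%. Those 3 were novel_circ_0017192 of DMD, novel_circ_0009401 and novel_circ_0009406 of SYNE1. Listing in both groups held for 26 of the 50, these 3 included. Of the others, 14 appeared in ovariectomized libraries alone and 10 in sham libraries alone. The 19 circRNAs listed in a single library are among these others by construction. The same split was not counted over all circRNAs, so whether the 14 and 10 are unusual was not tested. The smallest listed count is 2 reads, so a circRNA with fewer is not listed and was entered as 0.

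The leading circle of SYNE1, novel_circ_0009406 (chromosome 8, 77117709 to 77118046), is a single exon block of 338 bases that fills its whole span. It had 15, 32, 38, 21 and 44 junction reads in ovariectomized replicates 1 to 5, against 19, 12, 29, 32 and 15 in sham replicates 1 to 5. Every library listed it, the groups overlapped, and its 257 reads were 45.7% of the SYNE1 total. The second, novel_circ_0009401 (77083159 to 77083768), joins blocks of 162 and 168 bases. It had 6, 13, 10, 21 and 8 reads in ovariectomized libraries, against 9, 5, 11, 22 and 14 in sham libraries. These ranges overlapped almost fully. The third, novel_circ_0009404 (77106460 to 77113548, 304 spliced bases), had 3, 5, 4, 3 and 0 reads in ovariectomized libraries, against 0, 7, 5, 10 and 7 in sham libraries. The fourth, novel_circ_0009393 (76997044 to 77009568, 1 block of 126 bases), had 0, 0, 0, 4 and 5 reads in ovariectomized libraries, against 0, 7, 6, 16 and 4 in sham libraries. It was listed in 2 ovariectomized and 4 sham libraries, and the exact permutation p of 0.0635 missed the threshold of 0.05.

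In UTRN no circle dominated to that degree. The leading one, novel_circ_0009313 (chromosome 8, 69039566 to 69045649), joins blocks of 150 and 156 bases and held 27.4% of UTRN reads. It had 4, 4, 10, 0 and 25 junction reads in ovariectomized libraries, against 17, 11, 11, 11 and 9 in sham libraries. Scaled for library size, it had 0 to 15.5 normalized reads in ovariectomized libraries, against 9.09 to 22.1 in sham libraries, so the groups overlapped. The second, novel_circ_0009309 (69011135 to 69013567, 327 spliced bases), had 0, 13, 0, 6 and 13 reads in ovariectomized libraries, against 6, 6, 4, 7 and 6 in sham libraries. For novel_circ_0009305 (68993899 to 69010480, 412 spliced bases), counts were 6, 9, 3, 7 and 4 in ovariectomized libraries, against 0, 0, 0, 14 and 0 in sham libraries. All 5 ovariectomized libraries listed it and 1 sham library did, yet that library was the highest of the 10, and the exact permutation p was 0.397. For novel_circ_0009321 (69092837 to 69098359, 1 block of 136 bases), counts were 8, 4, 0, 3 and 18 in ovariectomized libraries, against 0, 2, 8, 0 and 0 in sham libraries.

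In DMD the leading circle was novel_circ_0017192 (chromosome X, 31803803 to 31809274), which joins blocks of 213 and 146 bases and held 26.3% of DMD reads. It had 3, 5, 21, 20 and 7 junction reads in ovariectomized libraries, against 5, 10, 14, 3 and 10 in sham libraries. Both groups spanned low and high libraries. The second, novel_circ_0017217 (32149143 to 32209113), had 7, 0, 0, 5 and 6 reads in ovariectomized libraries, against 5, 8, 10, 18 and 4 in sham libraries. The third, novel_circ_0017211 (32045162 to 32046821, 314 spliced bases), had 14, 3, 7, 7 and 2 reads in ovariectomized libraries, against 5, 0, 4, 3 and 6 in sham libraries. The fourth, novel_circ_0017207 (31955744 to 31973496, 340 spliced bases), had 0, 0, 0, 4 and 0 reads in ovariectomized libraries, against 0, 0, 3, 3 and 14 in sham libraries. The last rests largely on sham replicate 5. The other 14 DMD circRNAs had 2 to 22 junction reads each over the 10 libraries, and the least listed SYNE1 and UTRN circRNAs had 2 and 3.

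**Figure D2:**
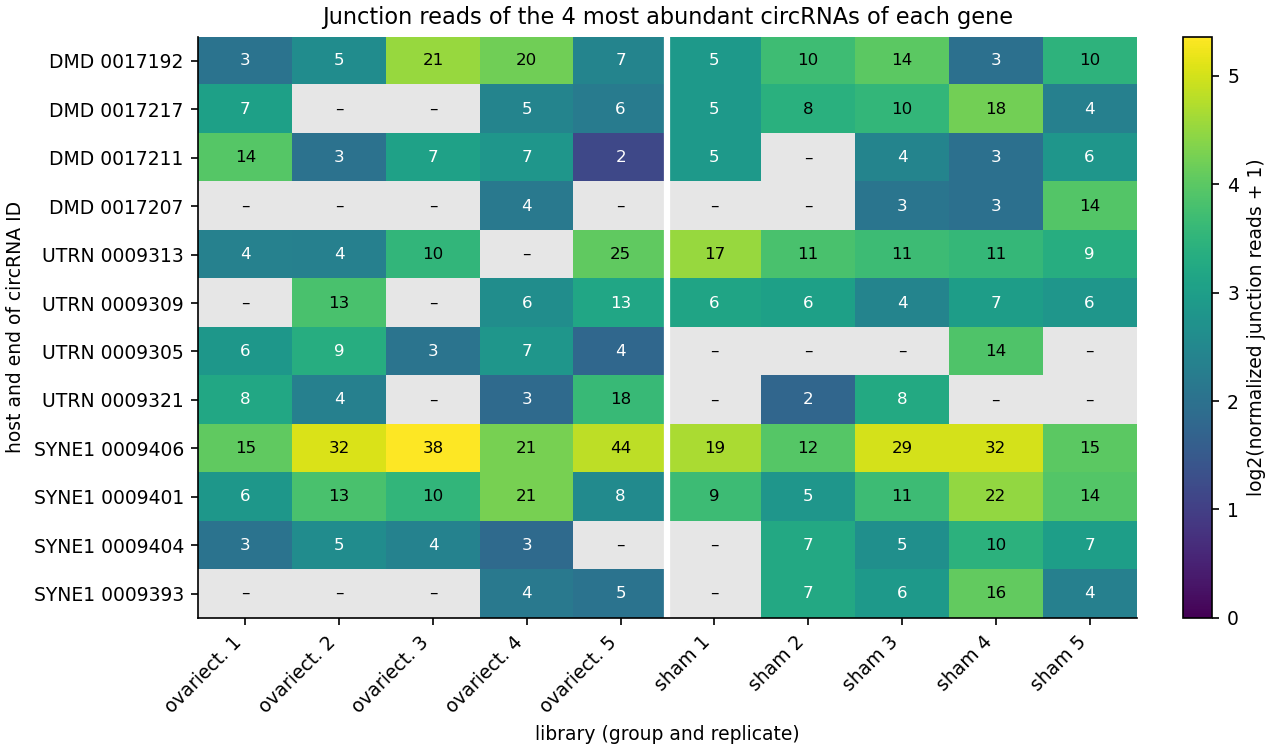
Junction reads (numbers) of the 4 most abundant circRNAs of each gene in the 5 ovariectomized libraries (left) and the 5 sham libraries (right); colour is log2(normalized junction reads + 1) and grey is not listed. SYNE1 novel_circ_0009406 leads in most libraries, and several UTRN and DMD circRNAs are missing from many.

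Per length of listed block, SYNE1 gave the most circRNA reads, with 45.7% of its junction reads from 1 circle. Normalized junction reads, scaled for library size as described in the processing section, were divided by the summed length of the distinct listed blocks. That length is 4016 bases for DMD, 3461 for UTRN and 3609 for SYNE1. The DMD length includes the 284 bases of the intronic novel_circ_0017210. Blocks missed at least 1 end in 2 DMD, 7 UTRN and 6 SYNE1 circRNAs, so the lengths are not fully comparable. The level over the 10 libraries was 15.3 ± 4.51 (SD, n = 10) reads per kb in SYNE1, 10.2 ± 3.62 in UTRN and 9.39 ± 3.71 in DMD. SYNE1 was above DMD in 9 of 10 libraries and above UTRN in 9 of 10. Its leading circle novel_circ_0009406 gave 257 of the 562 SYNE1 junction reads from 338 of the 3609 bases. The SYNE1 level thus leans on this circle, and the level without it was not compared. UTRN was above DMD in 5 of 10, so these neighbours did not differ beyond their spread.

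The genes differed far more in how their junction reads compared with non-junction reads. The junction share is junction reads as a percent of junction plus non-junction reads, summed over the circRNAs a library lists for the gene. Ends that several circRNAs share are counted for each, and circRNAs not listed in a library bring no non-junction reads. For DMD the share was 0.490%, 0.477%, 0.643%, 0.569% and 0.573% in ovariectomized libraries, against 0.389%, 0.428%, 0.531%, 0.242% and 0.692% in sham libraries. For UTRN it was 2.69%, 2.91%, 2.25%, 2.39% and 5.07% in ovariectomized libraries, against 3.89%, 1.66%, 1.92%, 3.81% and 3.64% in sham libraries. For SYNE1 it was 3.21%, 6.61%, 7.98%, 3.87% and 11.1% in ovariectomized libraries, against 6.29%, 3.46%, 5.00%, 5.99% and 4.80% in sham libraries. The order DMD, then UTRN, then SYNE1 held in every library.

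Across the 10 libraries the share averaged 0.503% ± 0.130 in DMD, 3.02% ± 1.06 in UTRN and 5.83% ± 2.39 in SYNE1 (SD, n = 10). The difference was -2.52 ± 1.08 percentage points for DMD minus UTRN, -5.33 ± 2.37 for DMD minus SYNE1 and -2.81 ± 1.86 for UTRN minus SYNE1. Each difference had the same direction in 10 of 10 libraries and a two-sided exact sign-flip permutation p of 0.00195 within libraries, the smallest that 10 libraries allow. For scale, the median tested host gene had a pooled share of 8.89%, and 736 of 751 tested hosts were above DMD, 607 above UTRN and 505 above SYNE1. Junction reads summed to 373 in DMD, 372 in UTRN and 562 in SYNE1, and non-junction reads to 83109 in DMD, 11929 in UTRN and 9877 in SYNE1. The order was the same when the most abundant circRNA alone stood for each gene. That circRNA was picked by its junction reads, which also enter the share, so this gives no separate support. With these circRNAs the difference was -3.33 percentage points for DMD minus UTRN and -13.8 for UTRN minus SYNE1. Each was negative in 9 of 9 libraries that list novel_circ_0009313, with an exact sign-flip permutation p of 0.00391. The SYNE1 share leans on its leading circle, novel_circ_0009406, which held 45.7% of the SYNE1 junction reads. In ovariectomized replicate 1 it gave 15 of 30 SYNE1 junction reads but 173 of 904 non-junction reads. In ovariectomized replicate 5 it gave 44 of 68 junction reads but 53 of 545 non-junction reads. In sham replicate 1 it gave 19 of 37 junction reads but 100 of 551 non-junction reads. The remaining SYNE1 circRNAs had a lower share than UTRN in each of these libraries, and a higher one in the others. The difference between UTRN and SYNE1 without this circle was not tested.

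**Figure D3:**
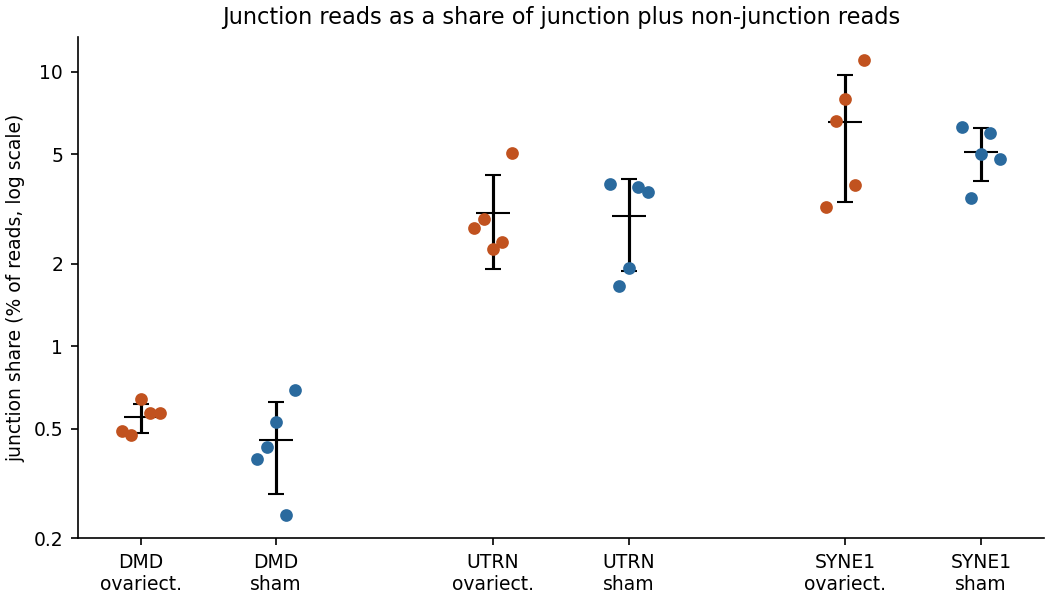
Junction share (percent of junction plus non-junction reads, log axis) of DMD, UTRN and SYNE1 in the 5 ovariectomized and 5 sham libraries; points are libraries, bars the mean and SD of each group. The DMD points lie between 0.242% and 0.692%, below all UTRN points, and the groups overlap within each gene.

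Single circles within a gene departed from its level. In SYNE1, novel_circ_0009406 had a pooled share of 15.4%, and it reached 45.4% in ovariectomized replicate 5, with 44 of 97 reads (95% exact Clopper-Pearson interval 35.2% to 55.8%). In the other libraries its share was as low as 7.41%. Ovariectomized replicate 5 had the highest median junction share over all circRNAs, 7.89%, against 3.68% to 5.26% in the other 9, and the part of this in the value was not tested. In DMD, the intronic novel_circ_0017210 (chromosome X, 32007591 to 32007874) had a pooled share of 10.2% and 22 to 76 non-junction reads, whereas the 17 exonic DMD circRNAs had pooled shares of 0.0923% to 0.903%. It had 0, 4, 0, 3 and 0 junction reads in ovariectomized libraries, against 0, 0, 12, 0 and 0 in sham libraries. The interval given for novel_circ_0009406 treats reads as independent and leaves out the spread between samples. Reads copied from the same molecule cannot be told apart in these counts.

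Non-junction reads also varied along the genes. In DMD they were highest at the 5′ circRNAs. The most 5′ one, novel_circ_0017217, had 924 to 3136 non-junction reads per library, the central novel_circ_0017192 had 606 to 1630, and the most 3′ one, novel_circ_0017177, had 478 and 744 in the 2 libraries that list it. Within a library, the Spearman correlation of midpoint position, counted from 5′ to 3′, with non-junction reads was negative in 10 of 10 libraries for the exonic DMD circRNAs. It ranged from -1 to -0.60 with a median of -0.79, over 4 to 11 circRNAs. In SYNE1 it was positive in 10 of 10, from 0.02 to 1 with a median of 0.53, over 4 to 9 circRNAs. There the circRNA with the most 5′ midpoint, novel_circ_0009409, had 39 to 54 non-junction reads, against 128 to 243 at novel_circ_0009401. In UTRN it was negative in 5 libraries and positive in 5, from -0.80 to 0.60 over 3 to 9 circRNAs. These correlations are across circRNAs that share a library, and some share an end, so they describe these libraries only.

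**Figure D4:**
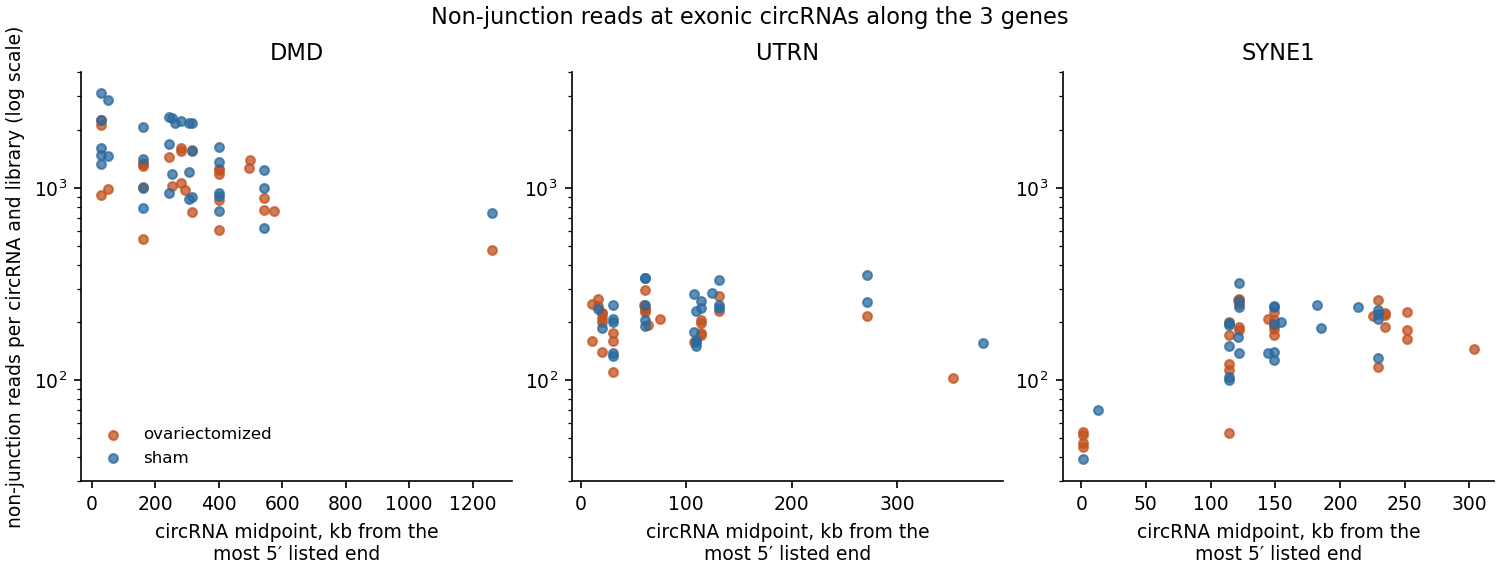
Non-junction reads per exonic circRNA and library (log axis) against the circRNA midpoint in kb from the most 5′ listed end of DMD, UTRN and SYNE1; points are 1 circRNA in 1 ovariectomized or sham library. DMD values are lower toward the 3′ end and lie above those of the other genes, while the SYNE1 values are lowest at its 5′ end.

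Libraries stood apart in the DMD non-junction reads. Of the 10 exonic DMD circRNAs listed in at least 3 libraries, ovariectomized replicate 5 listed 5 and had the lowest non-junction reads of any library at each. Sham replicate 4 listed all 10 and was the highest at each. At UTRN, sham replicate 4 was the highest at 0 of the 6 it listed and the lowest at 3, while sham replicate 2 was the highest at 5 of 5. The median non-junction reads per listed DMD circRNA were 1405, 975, 1236, 1302 and 752 in ovariectomized libraries, against 1107, 1177, 1388.5, 2176 and 887 in sham libraries. Over all circRNAs of a library, the median per listed circRNA was 106 in ovariectomized replicate 5, against 115 to 146 in the other libraries. It was 121 in sham replicate 4, where non-junction reads summed to 3185053, the highest total of the 10. The part of these library-wide values in the DMD reads was not tested.

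Between the groups, the genes' circRNA totals did not differ past the test. DMD had 51.7, 26.4, 39.1, 37.3 and 13.6 normalized junction reads in ovariectomized libraries, against 23.4, 30.1, 58.2, 58.1 and 39.4 in sham libraries. The groups overlapped, and ovariectomized replicate 5 was the lowest of the 10. UTRN had 18.6, 44.8, 25.3, 18.2 and 57.0 in ovariectomized libraries, against 40.3, 28.9, 41.0, 44.3 and 35.3 in sham libraries, so here ovariectomized replicate 5 was the highest. SYNE1 had 31.0, 66.1, 63.3, 72.8 and 42.1 in ovariectomized libraries, against 48.2, 37.3, 55.0, 82.7 and 52.5 in sham libraries. The means were 33.6 ± 14.3 in ovariectomized and 41.8 ± 15.9 in sham libraries for DMD, 32.8 ± 17.3 in ovariectomized and 38.0 ± 6.00 in sham libraries for UTRN, and 55.1 ± 17.7 in ovariectomized and 55.1 ± 16.8 in sham libraries for SYNE1 (SD, n = 5 each).

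In limma voom the log2 fold change of ovariectomized over sham was -0.49 ± 0.36 (SE, 95% interval -1.23 to 0.26) for DMD, with a Benjamini-Hochberg adjusted p of 0.815 over 751 hosts. It was -0.29 ± 0.33 (-0.98 to 0.40, adjusted p 0.865) for UTRN and -0.05 ± 0.28 (-0.63 to 0.53, adjusted p 0.961) for SYNE1. Of the 751 hosts tested, 0 (0%) passed an adjusted p under 0.05, as did 0 in limma trend, and 43 (5.73%) had an unadjusted p under 0.05, none of the 3 genes among them. The DMD value was -0.09 without ovariectomized replicate 5.

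**Figure D5:**
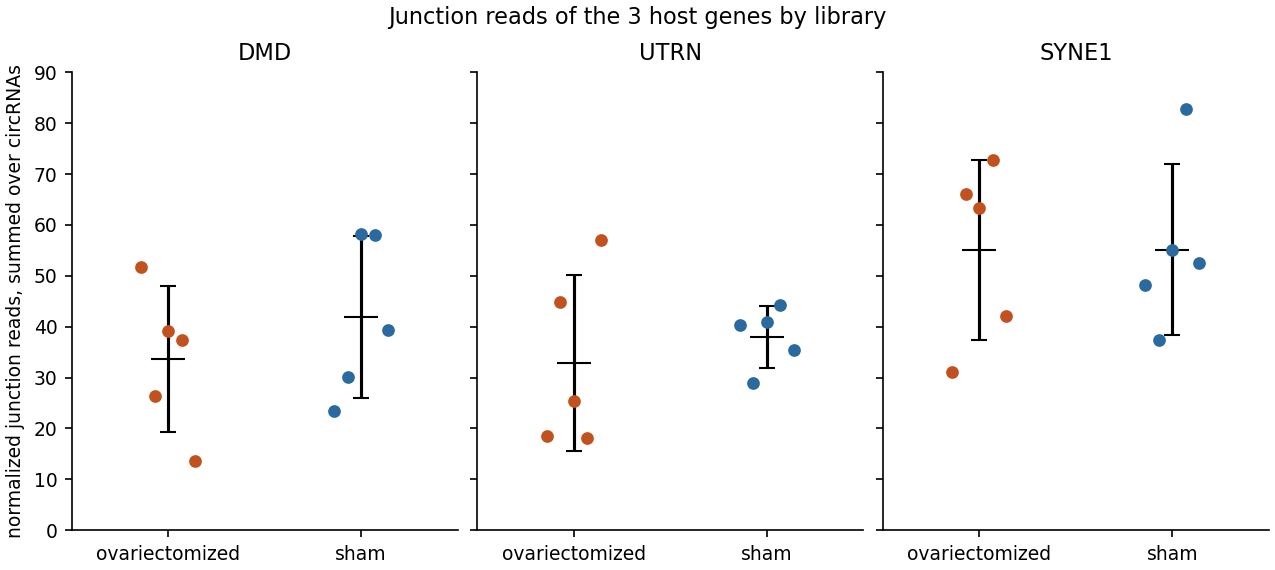
Normalized junction reads summed over the circRNAs of DMD, UTRN and SYNE1 in the 5 ovariectomized and 5 sham libraries; points are libraries and bars the mean and SD. The groups overlap in each gene, with means of 33.6 in ovariectomized and 41.8 in sham libraries for DMD, 32.8 in ovariectomized and 38.0 in sham libraries for UTRN, and 55.1 in both groups for SYNE1.

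Of the 50 circRNAs, 3 had enough reads for the fit over single circRNAs. For novel_circ_0009313 the log2 fold change of ovariectomized over sham was -1.14 ± 0.97 (SE, limma voom adjusted p 0.847), for novel_circ_0009401 -0.60 ± 0.50 (adjusted p 0.847) and for novel_circ_0009406 0.16 ± 0.34 (adjusted p 0.939). The value of novel_circ_0009313 was -0.19 without ovariectomized replicate 4, which does not list it. Over all 738 circRNAs tested, 0 (0%) passed, as did 0 in limma trend, and 42 (5.69%) had an unadjusted p under 0.05, none of the 3 among them.

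For the rarer circRNAs, normalized junction reads were compared between groups by exact permutation of the library labels, two-sided, which can give no p below 0.00794. Of the 50, 3 had an unadjusted p under 0.05, each of 0.0476, where 2.1% of all 8721 circRNAs did. One was novel_circ_0017217 of DMD, with 3.06 ± 3.09 normalized reads in ovariectomized libraries and 9.73 ± 5.19 in sham libraries (SD, n = 5 each). The other 2 fall outside the rule for named circRNAs and were chosen after their values were seen. The UTRN circRNA novel_circ_0009320 (69083922 to 69098359) was listed in 0 of 5 ovariectomized libraries and had 5, 3, 0, 5 and 6 reads in sham libraries. The SYNE1 circRNA novel_circ_0009409 (77229868 to 77232314) had 3, 9, 3, 0 and 6 reads in ovariectomized libraries, against 0, 0, 0, 0 and 3 in sham libraries. Each set of groups overlapped. The novel_circ_0009320 circle shares its donor at 69098359 with novel_circ_0009321, which had 33 reads in ovariectomized and 10 in sham libraries, with 18 of the 33 in ovariectomized replicate 5 and an exact permutation p of 0.278.

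The authors' deposited table marks 118 of 8721 circRNAs as significant at a p under 0.05, or 1.35%, and 2 of the 50 are among them. In the authors' deposited table novel_circ_0017217 has a p of 0.0397 and a log2 fold change of 1.63, and novel_circ_0009320 a p of 0.0132 and 4.65, both as sham over ovariectomized. Both have an adjusted p of 0.966 in the authors' deposited table.

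The balance of junction and non-junction reads did not differ between groups past the test in any of the genes. The junction share averaged 0.550% ± 0.0680 in ovariectomized and 0.456% ± 0.168 in sham libraries for DMD, 3.06% ± 1.15 in ovariectomized and 2.98% ± 1.10 in sham libraries for UTRN, and 6.55% ± 3.20 in ovariectomized and 5.11% ± 1.12 in sham libraries for SYNE1 (SD, n = 5 each). On the log2 ratio of junction to non-junction reads, ovariectomized minus sham was 0.35 ± 0.38 (SE) for DMD, 0.07 ± 0.40 for UTRN and 0.26 ± 0.41 for SYNE1, with limma adjusted p-values of 0.798, 0.960 and 0.835. The median over all 751 hosts was 0.29. Without ovariectomized replicate 5 that median was 0.14 over the hosts then tested, and the differences were 0.33 for DMD, -0.13 for UTRN and 0.02 for SYNE1. With all 10 libraries, 1 of the 751 hosts (0.133%) passed a limma adjusted p under 0.05 and 64 (8.52%) an unadjusted one, none of the 3 genes among them. Without ovariectomized replicate 5, 0 of 708 hosts passed the adjusted threshold. The DMD difference was 0.13 without sham replicate 4.

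From library to library the 3 genes were correlated weakly or negatively. The Pearson correlation of log2 host sums over 10 libraries was -0.43 between DMD and UTRN, 0.25 between DMD and SYNE1 and 0.17 between UTRN and SYNE1. Among the 750 other tested hosts, those most like DMD included ARHGAP6, which encodes a GTPase-activating protein (r = 0.87), and CNOT6L, a deadenylase gene (0.86). Those most like UTRN were HADH, which encodes an enzyme of fatty acid oxidation (0.96), IARS2, the mitochondrial isoleucyl-tRNA synthetase gene (0.84), and PDZD2 (0.84). Those most like SYNE1 were RAB23, which encodes a small GTPase (0.93), ARHGAP29, another GTPase-activating protein gene (0.76), and KIFAP3, a kinesin-associated protein gene (0.75). These are the highest of many correlations over few libraries and are given as a description.

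Partners of the 3 proteins hosted circRNAs as well, and none passed the test. Of 29 genes of the dystrophin complex, 14 hosted circRNAs and 1 had enough reads, SNTB1, which encodes a syntrophin, an adaptor that binds dystrophin. It had 8.28 ± 8.14 normalized reads in ovariectomized and 16.2 ± 10.8 in sham libraries (SD, n = 5 each), a limma log2 fold change of -1.67 ± 1.17 (SE). Dystroglycan (DAG1), the dystrophin receptor in the membrane, hosted 1 circRNA with 64 junction reads, and the sarcoglycan genes SGCB, SGCD and SGCE hosted circRNAs with 59, 21 and 29. Of 15 genes of the nuclear envelope linker complex, 5 hosted circRNAs and 3 were tested. SUN1, which encodes an inner membrane partner of nesprins, had 49.1 ± 32.0 in ovariectomized and 88.0 ± 40.8 in sham libraries, a log2 fold change of -1.05 ± 0.62. LEMD3 and TMPO, inner nuclear membrane protein genes, had -0.12 ± 0.34 and -0.02 ± 0.34. The median of that list was -0.12, against -0.05 over all 751 hosts.

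Of 16 genes of spectrin repeat proteins, 7 hosted circRNAs and 2 were tested. The Z-disc actinin gene ACTN2 had a log2 fold change of -0.40 ± 0.36 (SE, limma) and the cytoskeletal linker gene DST 0.54 ± 0.44. Of 18 costamere and neuromuscular junction genes, 8 hosted circRNAs and 3 were tested. The integrin genes ITGA7 and ITGB1 had 0.37 ± 0.29 and 0.18 ± 0.55, and the adaptor gene LIMS1 had -0.43 ± 0.28. In each of these lists 0 hosts were called higher and 0 lower at an adjusted p under 0.05. Against the pooled junction share of 0.447% in DMD, the share was 0.557% in ACTN2 and 0.579% in SNTB1. It was lower still in the actinin gene ACTN3 (0.339%), the filamin gene FLNC (0.0444%) and the desmin gene DES (0.00986%), none of which had enough reads for the fit, and it was 25.4% in SUN1. Of the 6 adult muscle fibre hosts tested, TTN (0.368%), NEB (0.157%), MYBPC1 (0.0908%) and ATP2A1 (0.0476%) were also below DMD. MYH2 (0.519%) and RYR1 (0.524%) were above it.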

How the data were processed

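Small-tailed Han sheep libraries, 5 ovariectomized and 5 sham, were grouped by title. Per the labels' protocols, the library kit was directional. The submitters' processing notes name HISAT2. For circRNA calling, genome build and annotation, the tools and versions were not given in the sources used here. The deposited table packs whole-number junction and non-junction counts into lists. A second table holds, per the file headers, a mean of normalized read signal per group by the authors, the log2 ratio of sham to ovariectomized, p-value and adjusted p-value. The first table holds 11297 circRNAs, and 10 sample names of no series sample were not used. Coordinates are those of the files, counted from 1. Chromosomes came from the host genes in a RefSeq gene table.

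Scaling between libraries used the trimmed mean of M values (30% of log ratios and 5% of abundances trimmed), and values were divided by the scaled size relative to the geometric mean. A circRNA or host sum was tested with at least 10 scaled reads in at least 5 libraries and a total of at least 15. limma 3.58.1 in R 4.3.3 (statmod 1.5.0) was fitted over the whole table with no covariate besides group, robust empirical Bayes and Benjamini-Hochberg adjustment at 0.05. It used voom for counts and log2 ratios with 0.5 added for the host ratio. The functions were tested on simulated counts. The text names tested circRNAs, the 4 with most reads per gene, extremes, the tested hosts of 4 lists, and the 3 hosts most alike; some of these are not reported here. The genes and lists were chosen with earlier results of these data known.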

Additional observations from a re-analysis of the deposited data

Results flagged for a closer look

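In groups of 5 libraries, 36 sets of values were examined for 1 library far from the other 4, by the gap to its nearest neighbour over the whole range (critical value 0.71), and 5 stood out. Chance gives about 1 in 20, and a value above 0 in a single library of 5 always meets this limit. The junction share of UTRN was 5.07% in ovariectomized replicate 5, against 2.25% to 2.91% in the other ovariectomized libraries. The median junction share over all circRNAs was also highest in that library, 7.89%, against 3.68% to 5.26% in the other 9. The DMD circRNA novel_circ_0017207 had 3.47 normalized junction reads in ovariectomized replicate 4 and 0 in the others of that group, and 14.1 in sham replicate 5, against 0 to 3.23 in the other sham libraries. The UTRN circRNA novel_circ_0009305 had 13.8 in sham replicate 4 and 0 in the other sham libraries. The UTRN circRNA novel_circ_0009321 had 8.62 in sham replicate 3, against 0 to 2.41 in the other sham libraries.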

How the results depend on the processing

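The order of junction shares held in each group alone, with differences of -2.51 (DMD minus UTRN), -6.00 (DMD minus SYNE1) and -3.49 (UTRN minus SYNE1) percentage points in ovariectomized libraries and -2.53, -4.65 and -2.12 in sham libraries, each with an exact sign-flip permutation p of 0.0625, the smallest that 5 libraries allow. Leaving out 1 library kept them within -2.66 to -2.30, -5.62 to -4.75 and -3.06 to -2.45. Calls after ovariectomy depended on the filter: 4 circRNAs and 1 host with at least 2 reads in at least 5 libraries, and 14 circRNAs and 7 hosts with no filter beyond 1 read, none of them a circRNA or host sum of DMD, UTRN or SYNE1. Replicate numbers were not shown to pair the samples (same-number correlations 0.0509, 0.19, 0.0522, 0.112 and -0.117, with 2 of 5 libraries most like their own number), and a replicate block called 3 circRNAs and 1 host, none of these genes, and moved novel_circ_0009313 to -0.11, against -1.14 without it. With library totals alone, which moved the median host from -0.05 to 0.12, the SYNE1 host sum turned to 0.11. The UTRN ratio turned to -0.43 with its leading circRNA alone. Leaving out 1 library gave 0 to 0 changed circRNAs, 0 to 1 changed hosts and 0 to 1 changed ratios, the last being 0 without any 1 of the 5 ovariectomized libraries. Host sums then ranged from -0.66 to -0.09 (DMD), -0.59 to -0.09 (UTRN) and -0.17 to 0.14 (SYNE1), and ratios from 0.13 to 0.52, -0.13 to 0.19 and 0.02 to 0.49. SYNE1 turned positive without ovariectomized replicate 1 (0.14) or 5 (0.07) or sham replicate 4 (0.12), and the UTRN ratio negative without ovariectomized replicate 5 (-0.13), sham replicate 2 (-0.12) or sham replicate 3 (-0.07). The cause was not tested. The circRNA novel_circ_0009313 ranged from -1.27 to -0.19 and fell under the filter in 5 of the 10 omissions, novel_circ_0009401 from -0.96 to -0.12 and novel_circ_0009406 from 0.02 to 0.33. Low reads limit the single circRNAs: 47 of 50 were under the filter.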
